A study of Mus musculus with 10 samples.

Results

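The 10 genes of retinoic acid signalling described here are the retinoic acid receptors Rara, Rarb and Rarg, their partners Rxra, Rxrb and Rxrg, the binding protein gene Crabp1, the breakdown enzymes Cyp26a1 and Cyp26b1, and the target gene Stra8. The members were taken by symbol, as every non-control probe whose gene name on the array equals one of these 10 symbols. This gave 10 of 34821 gene names and 15 of the 55681 non-control probes, 1 for each of 6 genes, 2 each for Rara, Rxra and Rxrg, and 3 for Rarb. The accessions of 14 of the 15 probes matched the same symbol in a RefSeq gene table, and 1 Rarb probe did not match.

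Gene expression of 4 groups was read on Agilent mouse arrays with Cy3 as the dye, 1 array per sample. Germline stem (GS) cells, a culture of self-renewing spermatogonia labelled wildtype, spent 3 days without FGF2 or GDNF and then 24 hours with 100 ng/mL FGF5 (n = 2) or without FGF5 (n = 2). GFRα1+ spermatogonia were sorted as GFP+ cells from 2.5-month-old mice that carried the Gfrα1-GFP knock-in in both genotypes, either WT (n = 3) or Fgf5-/- (n = 3), the latter homozygous for the go-moja allele of Fgf5. The sorted cells came from C57BL/6 mice, while GS cells are labelled C57BL/6 but came from an intercross of C57BL/6 and ICR mice according to the methods. The design gives the samples of a group as independent experiments, and whether mice were pooled is not given in the sources used here. FGF5 is a growth factor for spermatogonia, and the study asked what its addition or loss does to their gene expression. Stra8 and Rarg were genes that the study picked on these samples, so their directions are not independent evidence.

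Retinoic acid is made from vitamin A by retinol and retinal dehydrogenases and enters the nucleus, where heterodimers of a retinoic acid receptor (RAR) and a retinoid X receptor (RXR) bind paired copies of a short DNA motif and switch target genes on when the ligand is present. In the testis it drives undifferentiated spermatogonia into differentiation and later into meiosis, and Stra8 is the classical germ cell gene that it induces. RARγ, the product of Rarg, marks the undifferentiated cells that can respond to it, while CYP26 enzymes break it down and CRABP proteins carry it in the cytoplasm. Rarb and Cyp26a1 are known to be induced by retinoic acid through elements in their own promoters.

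Promoters are shown for the 3 genes with the most textbook ties to retinoic acid, since Rarb, Cyp26a1 and Stra8 are also among the genes that differed most between cultured and sorted cells. RefSeq promoters of all 10 members (17 entries, each from 250 bases before to 50 bases after the start, build GRCm38.p6) were searched on both strands for the core motif that RARs bind, spelled AGGTCA in its textbook form or else GGGTCA with its variant start, and likewise AGTTCA in that form or else GGTTCA with the variant start, in a direct repeat spaced by 1, 2 or 5 bases. The repeat with a spacer of 5 was present in 32 of 32851 promoters (0.0974%), and 2 member genes, Rarb and Cyp26a1, held it. The repeats spaced by 1 or 2 bases were present in 0.222% and 0.268% of all promoters and in those of 0 members. In the lines that follow the capitals mark the repeat of Rarb (chr14:16575477-16575626, minus strand, 53 to 37 bases before the start), the repeat of Cyp26a1, which reads on the opposite strand (chr19:37697658-37697807, plus strand, 32 to 16 bases before the start), and 2 separate AGGTCA motifs of Stra8 (chr6:34920698-34920947, plus strand, 194 and 38 bases before the start, with 150 bases between them).
Rarb promoter: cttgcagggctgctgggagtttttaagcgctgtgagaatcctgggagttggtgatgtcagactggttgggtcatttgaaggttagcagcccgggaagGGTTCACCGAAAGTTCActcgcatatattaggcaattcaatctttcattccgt
Cyp26a1 promoter: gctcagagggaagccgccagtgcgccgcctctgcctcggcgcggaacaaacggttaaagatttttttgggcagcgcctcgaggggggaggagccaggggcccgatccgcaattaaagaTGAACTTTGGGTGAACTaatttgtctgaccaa
Stra8 promoter: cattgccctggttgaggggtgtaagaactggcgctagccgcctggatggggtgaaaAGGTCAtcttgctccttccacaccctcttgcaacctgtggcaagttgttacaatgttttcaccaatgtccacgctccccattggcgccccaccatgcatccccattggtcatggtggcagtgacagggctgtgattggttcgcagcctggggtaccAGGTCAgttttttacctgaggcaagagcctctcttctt
These letters describe the promoters only, since binding was not measured.

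Signals are given as log2 values relative to the 75th percentile of each array, so that 0 is the level of that percentile, and no probe is set against another. A probe is called well above background by the scanner software's own flag, and 11 of the 15 member probes had this flag on all 10 arrays. The 75th percentile lay between 575 and 650 scanner units on the GS cell arrays and between 794 and 1091 on the sorted cell arrays, 55.3% to 65.9% of the probes were well above background, and 0 spots were saturated. The median SD between replicates, over the probes well above background on every array of a group, was 0.16 and 0.17 in the GS cell groups, 0.13 in WT and 0.20 in Fgf5-/- cells. The 4 GS cell arrays were on 1 slide and the 6 sorted cell arrays on another, so slide and material cannot be told apart. Of 8 marker genes of undifferentiated spermatogonia, all 8 were well above background on every array, with a summed level of 116 to 134 times the 75th percentile in GS cells and 117 to 132 times in sorted cells. Gene by gene the list differed between the materials: 6 of the 8 were called lower in GS cells, by 1.79-fold (Id4) to 11.3-fold (Etv5), with Gfra1, Lhx1, Ret and Nanos2 between them (adjusted p 8.23e-06 to 0.000608 by limma), while Zbtb16 (1.19-fold) and Neurog3 (2.44-fold) were called higher. Over all probes tested between the materials 68.5% were called, 26.7% lower and 41.8% higher in GS cells. The Fgf5 probe was well above background on 0 of 3 WT arrays and on 1 of 3 Fgf5-/- arrays, so it does not check the genotype. Etv5, a known target of FGF signalling, read 3.05 and 4.32 in GS cells with FGF5 and 0.51 and -0.99 without.

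**Figure D1:**
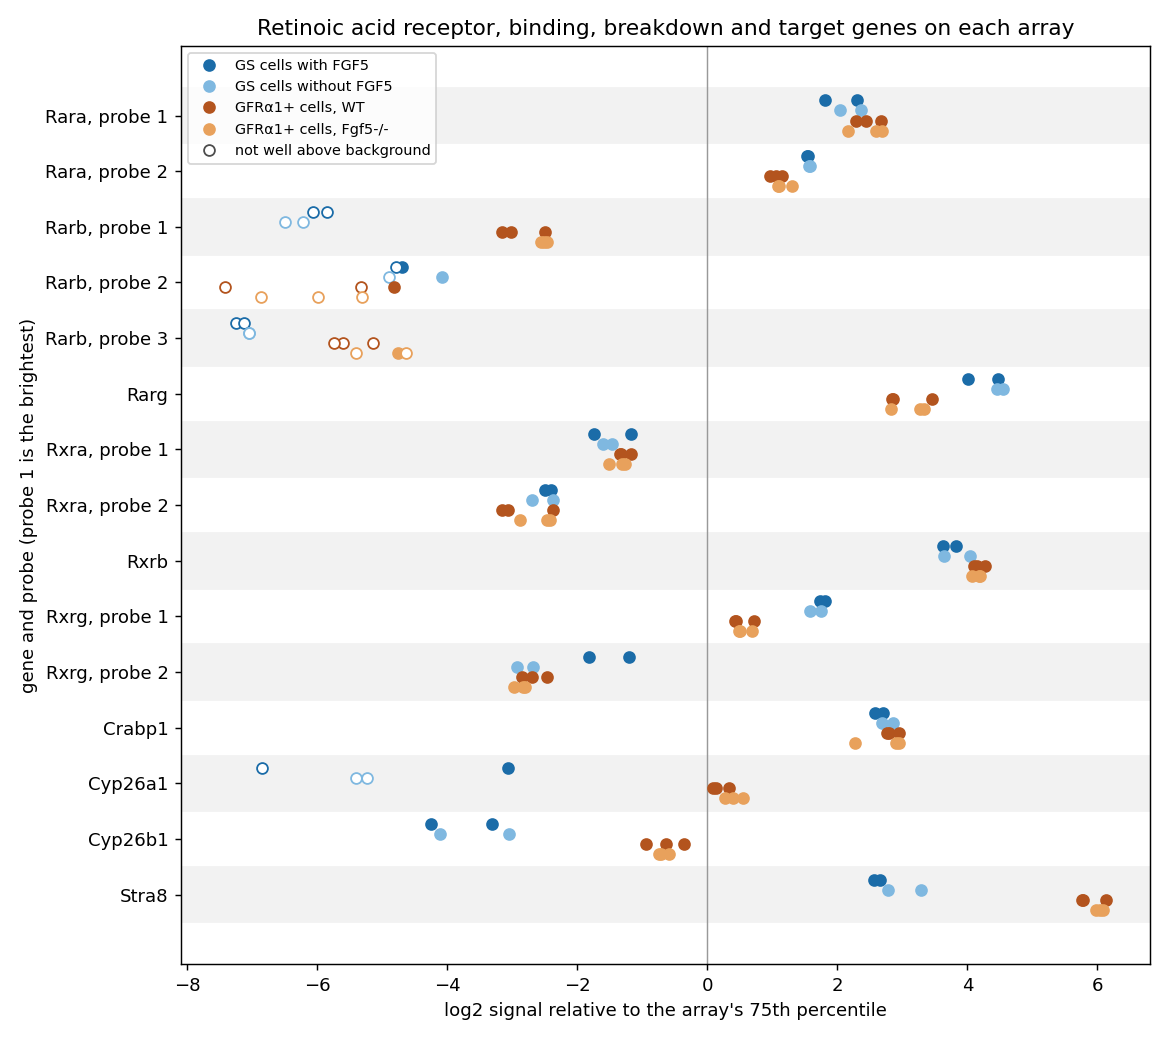
Log2 signal of each of the 15 member probes (rows) on each of the 10 arrays, relative to the array's 75th percentile; colors mark the 4 groups and open circles are arrays on which the probe was not well above background. The sorted cells lie far to the right of the GS cells for Stra8, Cyp26a1, Cyp26b1 and Rarb probe 1, and to the left for Rarg and Rxrg probe 1.

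Rarg, the receptor gene of undifferentiated spermatogonia, was bright in every sample (probe at chr15:102065371-102065430 in mm9). It read 4.48 and 4.01 in GS cells with FGF5, 4.55 and 4.45 without FGF5, 3.46, 2.84 and 2.86 in WT cells and 2.82, 3.32 and 3.26 in Fgf5-/- cells. Every GS cell array was above every sorted cell array, while the groups of each material overlapped. Rara, which encodes the most broadly expressed RAR, was read by 2 probes (probe 1 at chr11:98836197-98836256 and probe 2 at chr11:98835350-98835409). Rara probe 1 lay between 1.81 and 2.36 in GS cells and between 2.16 and 2.69 in sorted cells, and the materials overlapped. Rara probe 2 lay between 1.53 and 1.58 in GS cells and between 0.96 and 1.31 in sorted cells, without overlap. The probes of Rara thus did not order the materials in the same way.

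Rarb, a receptor gene that is itself a target of retinoic acid, was read best by the probe at chr14:17263367-17263426 (probe 1). This probe read -5.85 and -6.06 with FGF5 and -6.50 and -6.23 without, and it was well above background on 0 of the 4 GS cell arrays. In sorted cells it read -2.51, -3.02 and -3.16 in WT and -2.56, -2.51 and -2.47 in Fgf5-/- cells, and it was well above background on all 6 arrays. Rarb was thus detected by this probe in sorted cells and not in GS cells. Both other Rarb probes were dim in every group: probe 2 (chr14:17651424-17651483) was well above background on 2 of 4 GS cell arrays and 1 of 6 sorted cell arrays, and probe 3 (chr14:17264648-17264707) on 0 of 4 and 1 of 6. Their signals ran from -4.90 to -4.08 in GS cells and from -7.42 to -4.82 in sorted cells on probe 2, and from -7.26 to -7.05 and from -5.75 to -4.64 on probe 3. No order of the materials is read from signals at this level, and neither probe entered a test.

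The RXR genes encode the partners that RARs need to bind DNA. Rxrb was bright and even (chr17:34175279-34175338), from 3.62 to 4.04 in GS cells and from 4.08 to 4.27 in sorted cells. Rxra also varied little, from -1.75 to -1.18 in GS cells and from -1.51 to -1.18 in sorted cells on probe 1 (chr2:27615316-27615375), and its probe 2 (chr2:27618781-27618839) lay between -2.70 and -2.38 and between -3.16 and -2.38. Rxrg probe 1 (chr1:169569496-169569555) read 1.80 and 1.73 with FGF5, 1.58 and 1.75 without, 0.71, 0.42 and 0.44 in WT and 0.49, 0.69 and 0.51 in Fgf5-/- cells. All GS cell arrays were above all sorted cell arrays on this probe. Rxrg probe 2 (chr1:169569624-169569683) read -1.82 and -1.21 with FGF5, -2.68 and -2.93 without, -2.85, -2.70 and -2.47 in WT and -2.97, -2.81 and -2.83 in Fgf5-/- cells. On this probe the FGF5 arrays stood above the other 8.

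Crabp1, whose product binds retinoic acid in the cytoplasm, varied little over the groups (chr9:54616192-54616251). It read 2.70 and 2.57 with FGF5, 2.69 and 2.85 without, 2.94, 2.79 and 2.76 in WT and 2.27, 2.94 and 2.90 in Fgf5-/- cells, and all groups overlapped except GS cells with FGF5, which lay just below WT. Cyp26b1, an enzyme that breaks down retinoic acid (chr6:84521952-84522011), read -4.25 and -3.31 with FGF5, -4.12 and -3.05 without, -0.36, -0.63 and -0.94 in WT and -0.60, -0.74 and -0.71 in Fgf5-/- cells. It was well above background on all 10 arrays and lower on every GS cell array than on any sorted cell array. Cyp26a1, the other breakdown enzyme and a direct target (chr19:37775566-37775625), read 0.33, 0.13 and 0.079 in WT and 0.40, 0.26 and 0.55 in Fgf5-/- cells. In GS cells it read -6.85 and -3.08 with FGF5 and -5.41 and -5.24 without, and 1 of these 4 arrays, replicate 2 with FGF5, was well above background. Replicate 2 with FGF5 thus stood far above the other GS cell arrays for Cyp26a1.

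Stra8, which acts at the entry into differentiation and meiosis (chr6:34889237-34889296), was well above background on all 10 arrays. It read 2.65 and 2.57 with FGF5 and 2.78 and 3.28 without, against 6.14, 5.77 and 5.76 in WT and 6.05, 5.98 and 6.09 in Fgf5-/- cells. The FGF5 arrays were both below the arrays without FGF5, and the genotypes overlapped.

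Addition of FGF5 to GS cells moved no member past the test. Of the 11 member probes that were detected on each array of a condition and so tested, 0 were called at an adjusted p of 0.05 (limma), against 0% of all 34612 probes tested. Without adjustment, 882 probes (2.55%) had a p under 0.05, 1 of them a member probe. The member differences had a median of -0.12, with 4 higher and 7 lower, and the median of all tested probes was -0.029. A gap between the conditions, with no shared range, was seen for 3 of the 11 probes and for 22.7% of all tested probes.

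Stra8 was lower by 0.42 with FGF5 on the log2 scale (SE 0.23, 95% confidence interval of the difference -1.02 to 0.17, adjusted p 1 by limma), and no overlap was seen. The ratio was 0.746, and 5.02% of all tested probes were as low or lower. Rarg differed by -0.26 (SE 0.22, interval -0.84 to 0.32, adjusted p 1 by limma), with overlap. With 1 array left out in turn, the difference of Stra8 ran from -0.67 to -0.17 and that of Rarg from -0.50 to -0.026. The interval of Stra8 thus holds a fall to about 0.494 of the level without FGF5 as well as no change, and neither gene can be said to have changed or stayed.

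Rxrg probe 2 gave the biggest member difference, 1.29 higher with FGF5 (SE 0.26, interval 0.59 to 1.99, adjusted p 1 by limma, unadjusted p 0.00563), which is 2.44-fold. A difference as high was seen for 0.534% of all tested probes, and a size of 2-fold or more in either direction for 1.31%. Rxrg probe 1, which lies next to it in the same gene, differed by 0.10 (SE 0.16, interval -0.33 to 0.54), so the probes of Rxrg did not show the same difference. The other 7 member probes tested had differences from -0.20 for Cyp26b1 (SE 0.49) to 0.086 for Rxra probe 2 (SE 0.19). Rara probe 2 was the remaining probe without overlap, at -0.035 (SE 0.15). Cyp26a1 and Rarb were not tested in GS cells, since in neither condition were they detected on each array.

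Loss of Fgf5 moved no member past the test in sorted cells either. Of the 13 member probes tested in GFRα1+ cells, 0 were called (limma), against 0% of all 30285 probes tested, and 0 had an unadjusted p under 0.05, against 6.79% of all. For 0 of the 13 probes did the genotypes separate without overlap, a pattern that 16.2% of all tested probes showed. The member differences, Fgf5-/- minus WT, had a median of 0.039 and ran from -0.20 to 0.38, so that 0 reached 2-fold, against 0.941% of all. The widest difference was that of Rarb probe 1 at 0.38 (SE 0.18, interval -0.058 to 0.82, adjusted p 0.736 by limma).

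Stra8 differed by 0.15 between the genotypes (SE 0.14, interval -0.18 to 0.47, adjusted p 0.791 by limma), and an Fgf5-/- level between 0.885 and 1.39 times that of WT lies within this interval. For Rarg the difference was 0.083 (SE 0.22, interval -0.45 to 0.62, adjusted p 0.930 by limma). Cyp26a1 differed by 0.22 (SE 0.13, interval -0.085 to 0.53), Cyp26b1 by -0.038 (SE 0.16) and Crabp1 by -0.13 (SE 0.20). Of the probes not yet named, the values ran from -0.20 for Rxrg probe 2 (SE 0.13) to 0.28 for Rxra probe 2 (SE 0.24). Stra8 and Rarg had opposite signs in the culture and the sorted comparison, and the difference between those comparisons was not tested.

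**Figure D2:**
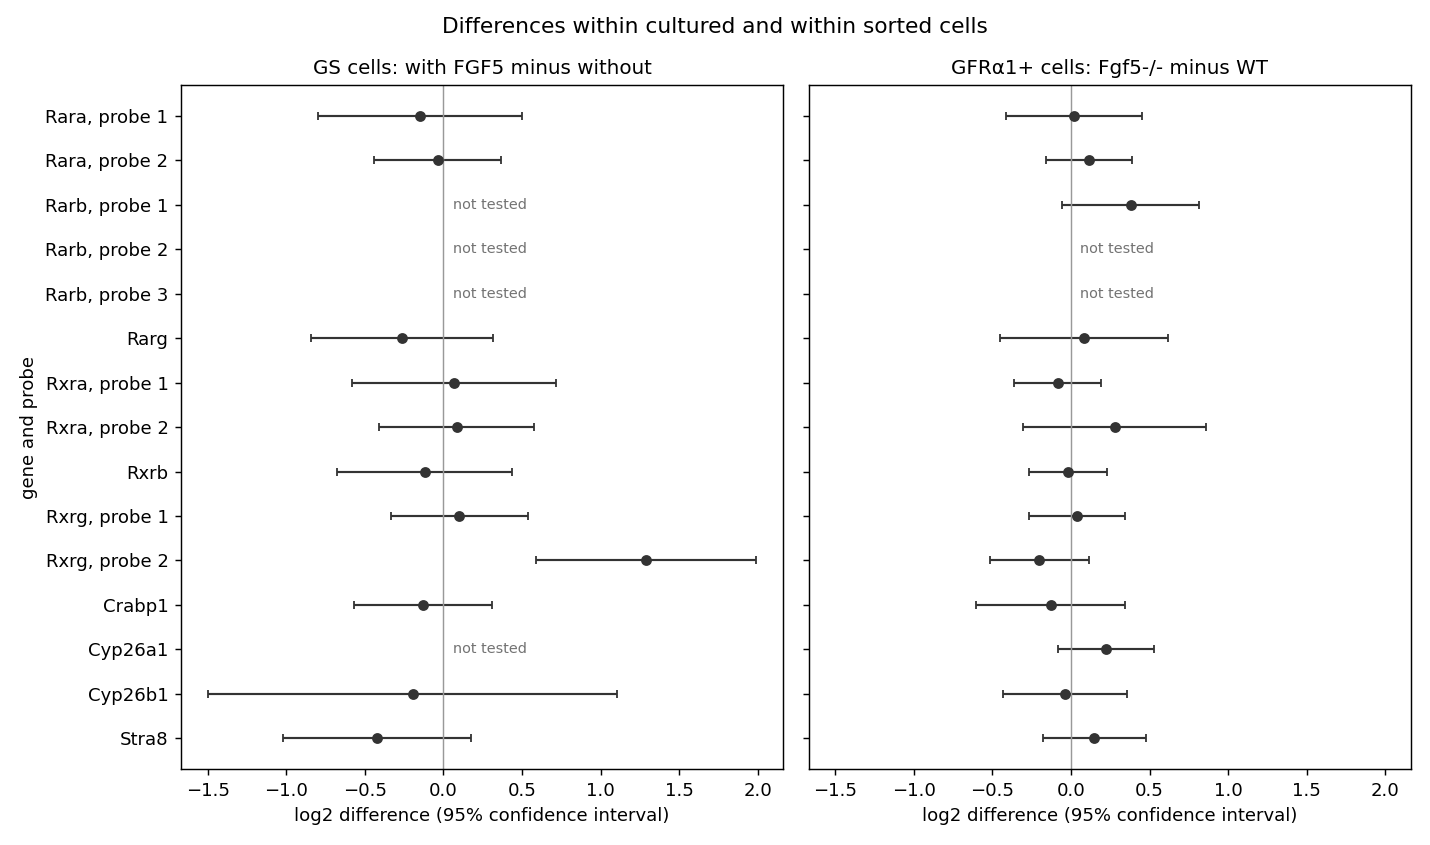
Log2 differences of the member probes (rows) with 95% confidence intervals from limma, on the left in GS cells (with FGF5 minus without, n = 2 and 2) and on the right in GFRα1+ cells (Fgf5-/- minus WT, n = 3 and 3). Every interval includes 0 except that of Rxrg probe 2 in GS cells, and none of the differences passed an adjusted p of 0.05.

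The widest member differences were those between cultured and sorted spermatogonia. In a fit of all 10 arrays, with the mean of both GS cell groups set against the mean of both sorted groups, 9 of the 13 member probes tested were called (limma, adjusted p under 0.05), 4 higher and 5 lower in GS cells. This share is near the 68.5% called among all 33921 probes tested (41.8% higher and 26.7% lower in GS cells), so a call as such says little of these genes. A size of 2-fold or more was reached by 6 of the 13, against 34.7% of all, and 8 did not overlap, against 57% of all. Of the 13 probes, Cyp26a1 and Rarb probe 1 were tested only because the sorted cell arrays detected them, so they had to differ, and these counts support nothing about the members. This comparison shares its arrays with the others. It spans the slides, the culture, the strain background, the sort and the withdrawal of FGF2 and GDNF from all GS cells for 3 days. These cannot be told apart. Of the GS cell arrays, 2 were also from cells without FGF5. The median of all tested probes was 0.23 higher in GS cells, and it moved to 0.12 with quantile normalization and to 0.38 with the percentile taken over well detected probes, so member differences are also given relative to it.

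The 4 lowest member differences, GS cells minus sorted cells, were those of the targets Cyp26a1, Rarb and Stra8 and of Cyp26b1. Cyp26a1 had a mean of 0.29 in sorted cells and of -5.14 in GS cells, where 1 of 4 arrays detected it. The difference of -5.43 is set mostly against background, and no interval or fold is given. For Cyp26a1 and Rarb probe 1 no p-value is given, since they were tested only because the sorted cell arrays detected them. Without replicate 1 with FGF5 the Cyp26a1 difference was -4.49, and without replicate 2 with FGF5, the only GS cell array that detected it, it was -6.38. Rarb probe 1, which 0 of 4 GS cell arrays detected, was at least 5.33-fold higher in sorted cells (means -2.70 and -6.16). This bound is taken against the higher, on each GS cell array, of the probe's own signal and the lowest signal that was well above background, and it holds for the signals as the scanner software processed them.

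Stra8 was lower in GS cells by 3.14 (SE 0.13, interval -3.44 to -2.85, adjusted p 7.15e-07 by limma), or -3.38 relative to the median of all probes. The sorted cells thus had 8.84-fold more Stra8 signal, and 0.958% of all tested probes were as low or lower in GS cells. Cyp26b1 was lower by 3.02 (SE 0.25, interval -3.59 to -2.44, adjusted p 1.97e-05 by limma), which is 8.10-fold, and 1.11% of probes were as low. With a normexp background correction, which shrinks differences of dim probes, the differences were -3.04 for Cyp26a1, -1.04 for Rarb, -1.95 for Cyp26b1 and -3.16 for Stra8, and the first 3 thus depend in size on how background is treated. A floor of 16 scanner units moved the Rarb difference from -3.46 to -2.56.

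Rarg was higher in GS cells by 1.28 (SE 0.18, interval 0.88 to 1.68, adjusted p 0.000273 by limma), 2.43-fold, with 16.1% of all tested probes as high or higher. Rxrg probe 1 was 1.17 higher (SE 0.10, adjusted p 2.53e-05 by limma), 2.26-fold, and 18.9% of probes were as high. Relative to the median of all probes these were 1.05 and 0.94. Rxrg probe 2 was higher by 0.61 (SE 0.14, adjusted p 0.00508 by limma), but its groups overlapped, and between GS cells without FGF5 and WT cells alone it was -0.13. Its call ended with quantile normalization (0.26, adjusted p 0.176 by limma).

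The remaining receptor genes and Crabp1 gave smaller differences between the materials. Rxrb was lower by 0.38 in GS cells (SE 0.11, adjusted p 0.0132 by limma), a call that ended with quantile normalization (-0.21, adjusted p 0.0939 by limma), with the percentile over well detected probes (-0.23, adjusted p 0.0726), between GS cells without FGF5 and WT cells alone (-0.33, adjusted p 0.142), without replicate 1 with FGF5 (-0.33, adjusted p 0.0509) and without replicate 1 without FGF5 (-0.28, adjusted p 0.0526). Rara probe 2 was higher by 0.45 (SE 0.092, adjusted p 0.00235 by limma) and kept its call under each of the 20 alternatives run, while Rara probe 1 was at -0.34 (SE 0.16, adjusted p 0.0873 by limma), so that the probes gave Rara opposite signs. Rara probe 1 passed without replicate 1 with FGF5 (-0.47, adjusted p 0.0451 by limma) and without Fgf5-/- replicate 1 (-0.42, adjusted p 0.0311). Rxra was at -0.17 (SE 0.13) on probe 1, which passed without replicate 2 with FGF5 (-0.32, adjusted p 0.039 by limma) and with quantile normalization (-0.36, adjusted p 0.0463), and at 0.23 (SE 0.18) on probe 2, which passed with normexp (0.34, adjusted p 0.0371). Crabp1 was at -0.064 (SE 0.15, interval -0.40 to 0.27, adjusted p 0.714 by limma), an interval that leaves out changes of 2-fold, and its sign turned to 0.10 with quantile normalization. Relative to the median of all probes, Rxrb stood at -0.61, Rara at -0.57 and 0.22 on its probes, and Crabp1 at -0.29.

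**Figure D3:**
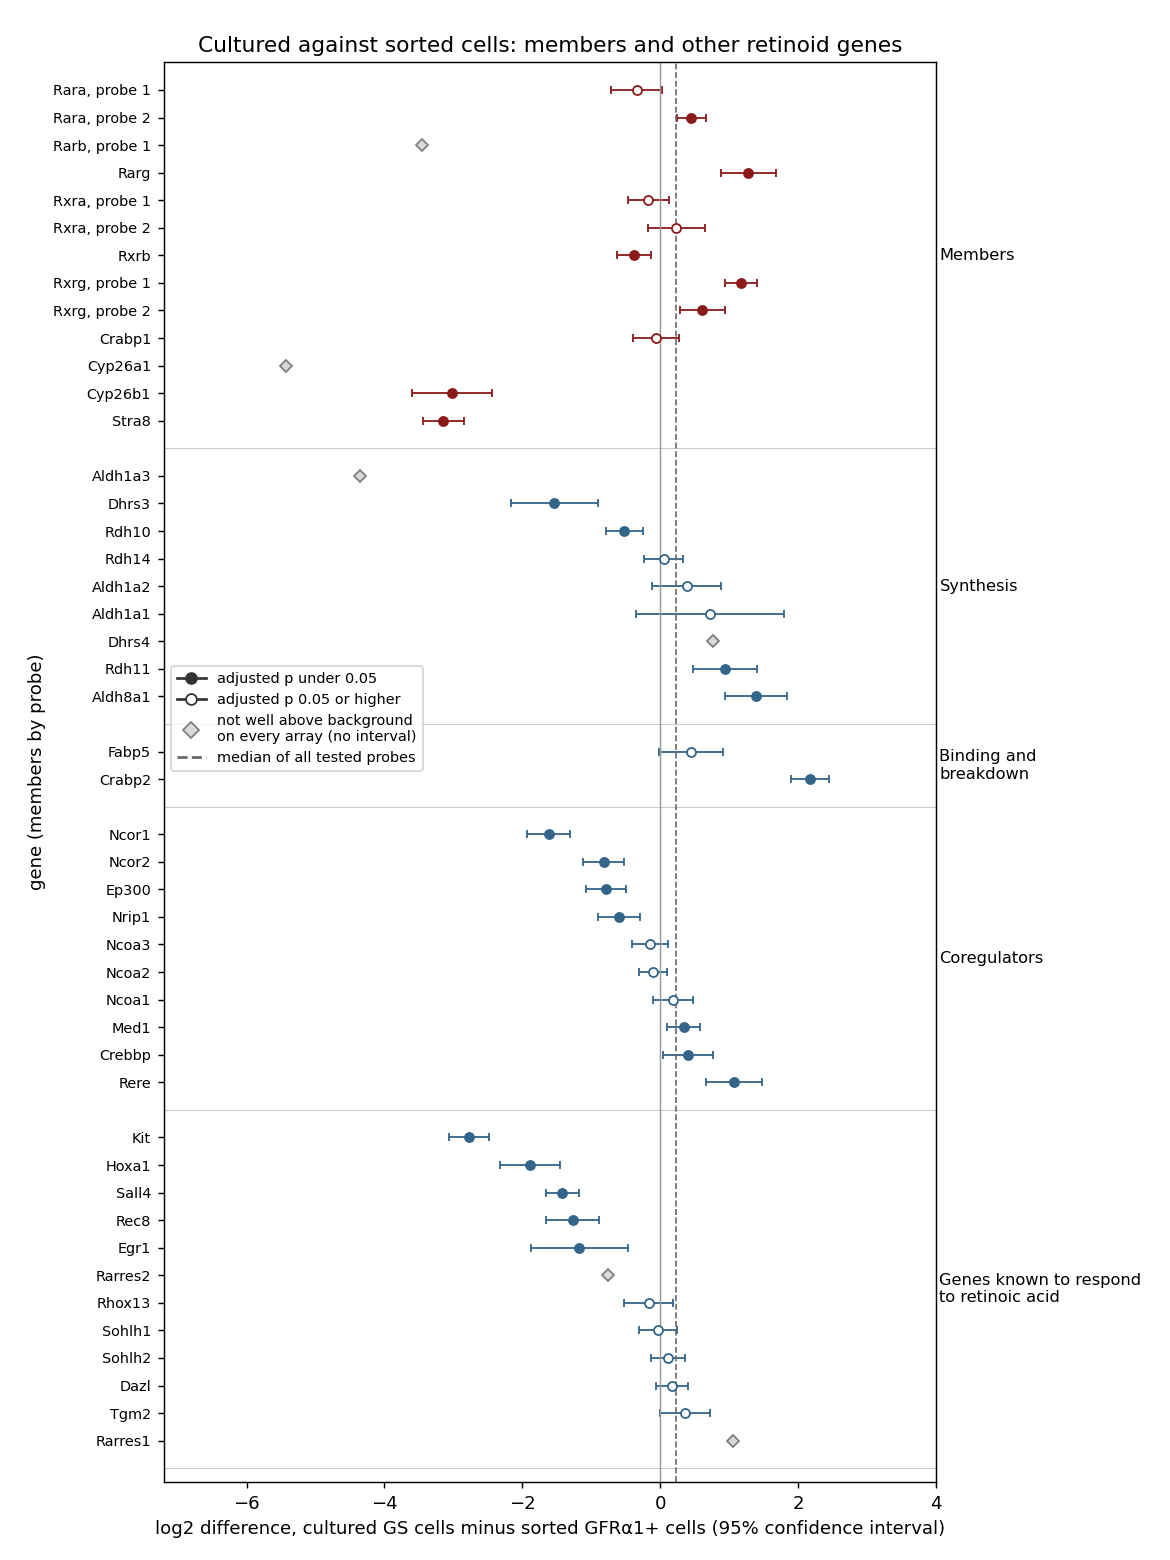
Log2 differences between cultured GS cells (n = 4) and sorted GFRα1+ cells (n = 6) with 95% confidence intervals from limma, for the tested member probes (red) and other genes of the retinoid pathway by role, of synthesis, binding and breakdown, coregulation and response (blue); filled points passed an adjusted p of 0.05, grey diamonds without an interval are probes not well above background on every array, and the dashed line is the median of all tested probes, 0.23. Cyp26a1, Aldh1a3, Rarb probe 1, Stra8 and Cyp26b1 lie farthest to the left, and Crabp2, Aldh8a1 and Rarg farthest to the right.

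The other genes of the pathway were read from a list of 41, of which 39 had a probe by symbol and 2, Meioc and Gm4969, did not. In GS cells 36 of them were tested and 0 were called with FGF5, and in sorted cells 35 were tested and 0 were called between the genotypes (limma). Their median differences were -0.023 and -0.0057, beside -0.029 and -0.031 over all tested probes. A single pathway gene reached 2-fold in culture: Aldh1a3, which encodes an enzyme that makes retinoic acid, had a mean of -2.94 with FGF5 and of -4.71 without (adjusted p 1 by limma), and 1 of the 2 arrays without FGF5 had it well above background. No pathway gene reached 2-fold between the genotypes.

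Between the materials, 21 of 36 pathway genes were called, 8 higher and 13 lower in GS cells, with a median of -0.093. Over all tested probes 68.5% were called, 41.8% higher and 26.7% lower, with a median of 0.23, so that the share of pathway genes called lies below that of all probes. Among the called genes, Aldh1a3, Dhrs4 and Rarres1 were not well above background on every array. Each of them was tested only because the material in which it was higher detected it. By role, 6 of 9 synthesis genes were called, 3 in each direction, as were 7 of 10 receptor coregulators (3 higher and 4 lower) and 1 of 2 genes of binding and breakdown. Of 12 genes known to respond to retinoic acid, 6 were called, 1 higher and 5 lower. The share called is again smaller than over all probes, while the share called lower is above the 26.7% of all probes. Dhrs3 was on both the synthesis and the response list and is counted under synthesis only. It was called lower by 1.53 in GS cells (SE 0.28, adjusted p 0.00119 by limma). Among the lowest in GS cells were Aldh1a3, with a mean of -3.82 in GS cells, where 3 of 4 arrays detected it, and of 0.54 in sorted cells, and Kit, lower by 2.77 (SE 0.13), the receptor gene that marks differentiating spermatogonia. Highest in GS cells were Crabp2 at 2.17 (SE 0.12), which encodes the sister protein of CRABP1, then Aldh8a1 at 1.39 (SE 0.20), an aldehyde dehydrogenase gene, and Rere at 1.07 (SE 0.18), a coregulator. Crabp2 was thus 4.50-fold higher in GS cells, and whether it differed from Crabp1 in this was not tested.

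Markers of other cells differed between the materials as well. In bulk RNA, fewer cells of a type and less RNA per cell cannot be told apart. The summed level of 9 Sertoli cell markers was 2.33 to 2.99 in GS cells and 6.45 to 10.9 in sorted cells, with the defining genes Amh and Fshr not well above background on any array. Of these 9, 7 were tested and 5 were called lower in GS cells, Clu (18.8-fold) and Rhox5 (5.02-fold) among them. Cldn11 and Dhh, also among the 5, were tested only because the sorted cell arrays detected them. Over all tested probes 68.5% were called, 41.8% higher and 26.7% lower in GS cells. Sox9 was called higher (log2 difference 2.03). Not every sorted cell array detected it, and it was tested only because the GS cell arrays did, so no p-value is given. Wt1 had a log2 difference of -0.23 (adjusted p 0.236 by limma). The summed level of 6 spermatid markers was 0.845 to 1.04 in GS cells and 4.53 to 15.99 in sorted cells. Of these, Acrv1 and Odf1 were not well above background on any array, and the other 4 were called lower in GS cells. Tnp2, among the 4, was tested only because the sorted cell arrays detected it. These sums thus moved in the direction of Stra8, Cyp26a1, Cyp26b1 and Rarb, and their part in those differences was not tested.

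The sums of the marker lists of somatic cells outside the tubules were higher in GS cells, the direction of Rarg and Rxrg, but not every gene was. The 5 Leydig cell markers found summed to 4.99 to 6.65 in GS cells and 0.424 to 1.96 in sorted cells, with Cyp11a1 and Lhcgr not well above background on any array. For macrophages (5 markers found) the ranges were 3.58 to 4.39 and 0.938 to 1.94. Of the macrophage markers, Lyz2 was well above background on no array and C1qa only on Fgf5-/- replicate 3. The ranges were 8.07 to 9.67 and 2.39 to 4.65 for endothelial cells (5, Emcn not well above background on any array). For peritubular cells and fibroblasts (10) they were 6.81 to 16.5 and 5.13 to 6.46. Of the genes tested, 2 of 2 Leydig cell, 3 of 3 macrophage and 6 of 9 peritubular and fibroblast markers were called higher in GS cells. Pdgfra of the last list was called lower. Over all tested probes 68.5% were called, 41.8% higher and 26.7% lower in GS cells. Among the fibroblast markers called higher, Myh11, Col3a1 and Dcn were tested only because the GS cell arrays detected them, so these counts support nothing about the lists. In the endothelial list Kdr (2.69-fold) and Pecam1 (2.06-fold) were called higher. Cdh5 was called lower (log2 difference -2.35). Not every GS cell array detected it, and it was tested only because the sorted cell arrays did, so no p-value is given. Tek was at least 4.63-fold higher in sorted cells. No GS cell array detected Tek, and it was tested only because the sorted cell arrays did, so it had to differ. In GS cells the brightest gene of each list carried much of its sum. These were Cyp17a1 for Leydig cells, Csf1r for macrophages, Kdr for endothelial cells and Col1a1 for peritubular cells and fibroblasts. Col1a1 itself was not called (1.85-fold higher in GS cells, adjusted p 0.0861 by limma). The part of these lists in the differences was not tested. The sums of the germ cell lists lay closer together or overlapped, with single genes called in both directions: 6 markers of differentiating spermatogonia, Kit among them, summed to 74.4 to 94.0 in GS cells and 81.8 to 102 in sorted cells, and 7 spermatocyte markers to 23.7 to 31.0 and 20.5 to 25.2. Of the former, 1 was called higher and 2 lower in GS cells, and of the latter 2 and 4. Spo11, among the spermatocyte markers called lower, was tested only because the sorted cell arrays detected it. Between the genotypes and between the FGF5 conditions no list is set beside a member difference, since no member passed.

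**Figure D4:**
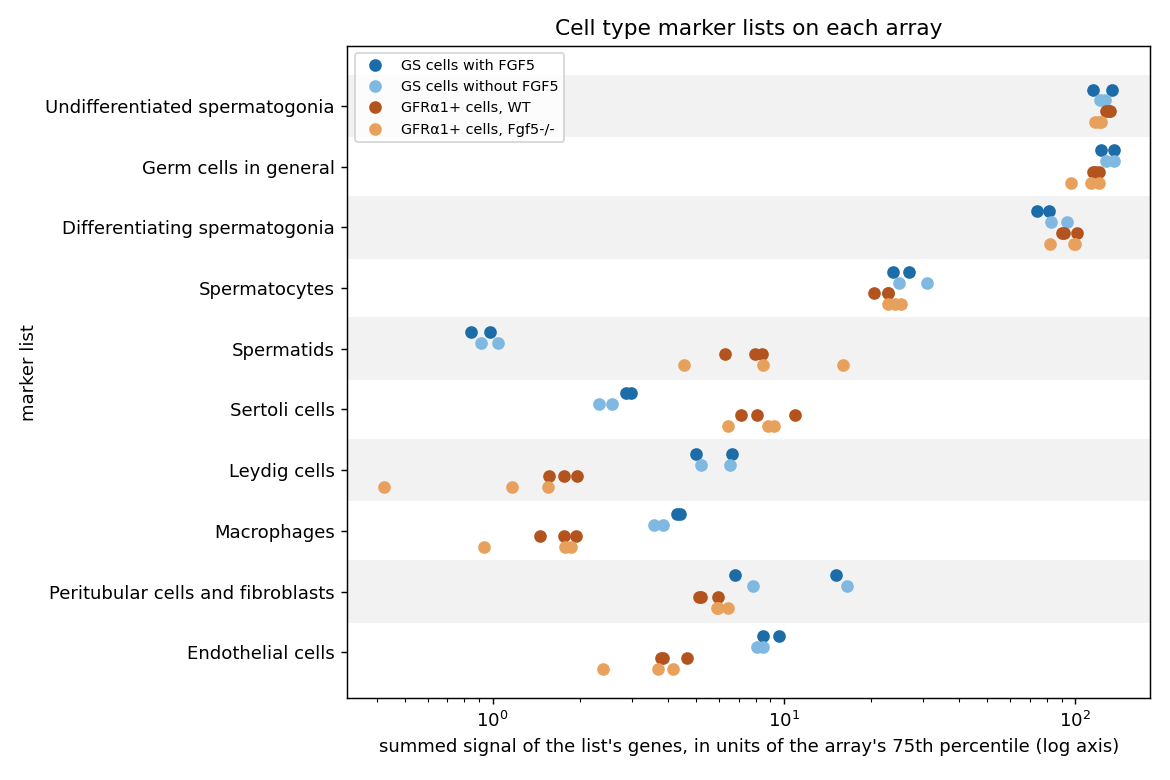
Summed signal of each of 10 cell type marker lists (rows) on each of the 10 arrays, in units of the array's 75th percentile on a log axis; colors mark the 4 groups. Spermatid and Sertoli cell lists are higher on every sorted cell array than on any GS cell array, and Leydig cell, macrophage and endothelial lists are lower. The sums of undifferentiated spermatogonia overlap, although 6 of its 8 genes were called lower in GS cells and 2 higher, beside 26.7% and 41.8% of all tested probes.

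The genes whose profile over the 10 arrays was most like that of Stra8, after each probe was centred on its own mean, were Kifc3, Gbp3 and Eno4, with root-mean-square differences of 0.13, 0.15 and 0.16 in log2 signal among 14764 genes well above background on every array. For Rarg they were Serpina1f (0.11), Neurog3 (0.13) and Gamt (0.13). Their cultured minus sorted differences were -3.23, -3.16 and -3.00 beside Stra8 and 1.28, 1.29 and 1.23 beside Rarg, so the likeness is mostly that of the gap between the materials. Neurog3 is itself a marker of undifferentiated spermatogonia that are set to differentiate, and it was in the list of such markers above.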

How the data were processed

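RNA of 10 samples was labelled with Cy3 and hybridized to 1-color Agilent 8x60K arrays. The scanner output that the authors deposited holds each spot's background-subtracted intensity and flags, made with Feature Extraction 10.7.1.1 per the file headers (10.7.3.1 per the labels). The authors deposited a table of log2 values too, made with a floor of 1 and a 75th percentile shift, which differs from the log2 scanner signal by a constant per array (column medians -3.75 to -3.11). Probe positions are those of the files (mm9). Sorted cell files lack gene names, which were taken by probe name from the GS cell files.

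Here limma (version 3.58.1) and data.table (version 1.17.8) were used under R 4.3.3. Signals got a floor of 1, log2 and subtraction of the 75th percentile, flagged spots (117 to 205 per array) were left out, and spots of a probe were averaged. Tested probes were those flagged as well above background on each array of a group (across materials, of a material). Fits used lmFit and eBayes with two-sided p-values, which were adjusted over all tested probes (Benjamini-Hochberg). A gene with several probes was read first from the brightest. Arrays have no sequencing depth, and their number limits the precision.

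The procedure was tested on simulated data with 200 changed probes: at a log2 change of 1 it recovered 0% in the GS cell design, 46% in the sorted design and 66.5% across materials, and at 2 it recovered 92%, 97% and 94.5%. The simulated arrays varied independently, whereas deviations of same-numbered GS cell arrays correlated at 0.68. Across materials 23226 probes were called in the data. The simulated shares thus need not hold for the data themselves. Named were all members, pathway genes past the threshold or 2-fold within a material, the 3 highest and 3 lowest pathway genes across materials, and the 3 profiles nearest to Stra8 and to Rarg; a pathway gene that this rule names is not reported here. The members and lists were chosen with earlier results of these data known. Alternatives were quantile normalization, normexp with an offset of 50 (on mean spot signals for GS cells alone, on median signals elsewhere), the authors' table, the percentile over well detected probes, a floor of 16, flagged spots kept, no filter and a stricter filter, an intensity trend, the replicate number as a block, GS cells without FGF5 against WT alone, and leaving out each array.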

Additional observations from a re-analysis of the deposited data

How the results depend on the processing

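Counts of member probes called within a material stayed at 0 under every alternative run. In sorted cells the count over all probes was 0 and became 1 without WT replicate 2, 1 without WT replicate 3, 6 without Fgf5-/- replicate 1 and 5 without Fgf5-/- replicate 3 (range 0 to 6 over the 6 arrays left out in turn, 0 members among them). The replicate block left 0 calls in GS cells and 0 in sorted cells, with Stra8 at -0.42 and 0.15. In GS cells it lowered the SE of Stra8 from 0.226 to 0.185 and that of Cyp26b1 from 0.493 to 0.119. Probes with an unadjusted p under 0.05 (limma) went from 882 to 2481 in GS cells and from 2055 to 1561 in sorted cells. Equal numbers are not stated to share a culture, animal or day, and deviations of same-numbered samples correlated at 0.68 in GS cells and at -0.41, -0.19 and -0.13 in sorted cells.

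Signs of small member differences turned in places. In GS cells, leaving out 1 array gave ranges of -0.22 to 0.35 for Rxra probe 1, -0.072 to 0.24 for Rxra probe 2, -0.73 to 0.34 for Cyp26b1, -0.32 to 0.076 for Rxrb and -0.39 to 0.10 for Rara probe 1. In sorted cells the ranges were -0.18 to 0.10 for Cyp26b1, -0.058 to 0.027 for Rxrb, -0.026 to 0.13 for Rxrg probe 1, -0.022 to 0.29 for Rarg, -0.085 to 0.18 for Rara probe 1 and -0.25 to 0.086 for Crabp1. There, Rxrb turned to 0.10 with quantile normalization, Rxrg probe 1 to -0.028 and Rara probe 1 to -0.043 with normexp, and Cyp26b1 to 0.022 and Rxrb to 0.038 with the percentile over well detected probes. Across materials, Crabp1 turned to 0.10 and Rxra probe 2 to -0.14 with quantile normalization, Crabp1 to 0.086 with the percentile over well detected probes, and Rxrg probe 2 to -0.13 between GS cells without FGF5 and WT alone. Of 258 member values across materials, 243 kept sign and side of the threshold, 6 were no longer called, 5 became called and 4 changed sign, with 7 to 10 member probes called in all; the cause was not tested. The stricter filter on dim probes left out Cyp26a1 and Rarb, which GS cell arrays mostly did not detect. With 1 array left in a GS cell condition, that array is assumed to vary like the other condition.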
